A study of Saccharomyces cerevisiae with 24 samples.

Results

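Most deeply covered sub-nucleosomal peaks of this series lay outside protein-coding genes, once the regions named below were left out. The peaks described here are exceptions, deeply covered footprints inside the body of a protein-coding gene, away from its ends and from other promoters. A peak was counted as a strong coding peak when it held 240 or more reads summed over all libraries, lay inside exactly 1 protein-coding gene of the S288C R64 annotation, was over 300 bp from both ends of that gene, and had no other gene start within 1000 bp downstream. Peaks in the ribosomal DNA array, in Ty elements and long terminal repeats and in the last 30 kb of chromosomes were left out. This gave 106 strong coding peaks in 91 genes, out of 58467 deposited peaks. At any depth, 20465 of the deposited peaks met the same rule of position, so it is the depth that is rare there. Of the 5775 peaks with 240 or more reads, 4553 lay outside the excluded regions, 814 of these were inside exactly 1 protein-coding gene, 170 of those were far enough from its ends, and 106 remained. Of the 106, 105 lay in annotated coding sequence, and the peak in *GLC7*, which encodes the catalytic subunit of protein phosphatase 1, lay in the intron of that gene. Since the peaks were chosen by their summed reads, their depth is a description and not a result.

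The libraries came from sub-nucleosomal MNase-seq, in which short DNA fragments protected from micrococcal nuclease are sequenced. Cultures of 2 W303 strains were followed through a single S phase, in 12 libraries each: G1 cells arrested with alpha factor, and 11 samples between 5 and 60 min after release. Both strains were MATa and carried ade2-1, can1-100, rad5-535, ura3-1, trp1-1, leu2-3, 112 and his3-11, 15. Both lacked *SML1*, which encodes an inhibitor of ribonucleotide reductase. In the control strain (*sml1∆*) this deletion was marked with URA3. In the *sml1∆ SSDDCS* strain it was marked with HphNT, as the labels give it, and 6 replication initiation factors were expressed in pairs from the divergent galactose-inducible GAL1-10 promoter: Sld7 and Cdc45 at *leu2*, SLD3-A and Dbf4-A at *his3*, and Sld2 and Dpb11 at *trp1*. Cells were grown in raffinose, galactose was added to the arrested cultures of both strains for 30 min, and the release was into galactose. Each strain and time point had 1 library, so no comparison has a replicate error, no test was possible and no p-value is given. Intervals on single peaks and on shares cover counting error only. Those on medians are rank-based, cover the spread over peaks, and say nothing of the spread between cultures.

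As background, proteins such as transcription factors protect short stretches of DNA from the nuclease, and most of them bind in the nucleosome-depleted region ahead of genes. Abf1, Reb1, Rap1, Cbf1 and Tbf1 are general regulatory factors of yeast, which bind specific sequences and help to keep promoters free of nucleosomes. Ume6 binds the URS1 element and represses meiotic and nitrogen-regulated genes during growth. Coding sequence is mostly covered by regularly spaced nucleosomes, and matches to factor motifs also occur within it.

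The sequences that carry the motif finding are given first, as windows of the + strand of R64 centred on the peak position, with the matched motif in capitals. The first set shows matches to the Abf1 consensus at the deepest peaks that had one. *FAA4* encodes a long-chain fatty acyl-CoA synthetase, *SNF6* a subunit of the SWI/SNF chromatin remodeller, *GDH2* the NAD-dependent glutamate dehydrogenase, *PUT4* the proline permease and *MNN4* a regulator of mannosylphosphate addition to the cell wall.
FAA4, chrXIII:760243-760303: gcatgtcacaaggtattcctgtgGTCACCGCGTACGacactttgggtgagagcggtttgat
SNF6, chrVIII:55449-55549: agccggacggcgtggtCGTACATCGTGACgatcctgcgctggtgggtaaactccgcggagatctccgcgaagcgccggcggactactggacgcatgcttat
GDH2, chrIV:73437-73537: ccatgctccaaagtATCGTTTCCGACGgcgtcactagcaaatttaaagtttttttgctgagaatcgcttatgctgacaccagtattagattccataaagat
PUT4, chrXV:988218-988278: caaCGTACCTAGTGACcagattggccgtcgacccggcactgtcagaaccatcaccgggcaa
MNN4, chrXI:66365-66425: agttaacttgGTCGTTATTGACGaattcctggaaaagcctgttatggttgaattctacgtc

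The second set shows the URS1 core of Ume6 (GGCGGC, or GCCGCC on the other strand). *PHM7* encodes a membrane protein, *UGA2* succinate-semialdehyde dehydrogenase of 4-aminobutyrate use, and *CAR2* ornithine transaminase of arginine breakdown. The second peak of *PUT4* held matches on both strands, and *CAR2* held an Abf1 match beside its Ume6 match. *UME6*, the gene of the factor itself, also held a match.
PHM7, chrXV:163178-163238: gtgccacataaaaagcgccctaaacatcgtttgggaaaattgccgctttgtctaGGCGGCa
PUT4, chrXV:988118-988178: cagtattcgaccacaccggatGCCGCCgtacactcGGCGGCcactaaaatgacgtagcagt
UGA2, chrII:247503-247563: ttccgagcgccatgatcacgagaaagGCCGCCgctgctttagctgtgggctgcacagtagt
CAR2, chrXII:1013409-1013469: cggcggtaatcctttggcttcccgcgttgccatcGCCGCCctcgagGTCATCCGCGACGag
UME6, chrIV:866770-866870: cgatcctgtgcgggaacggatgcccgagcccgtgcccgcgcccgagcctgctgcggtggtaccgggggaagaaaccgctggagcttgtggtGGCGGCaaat

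The last sequence is that of the deepest peak with no 50 bp stretch found elsewhere in the genome. It lay in *ATF2*, which encodes an alcohol acetyltransferase. The window held the letters of the Tbf1 motif (ACCCTAA, here TTAGGGT on the + strand).
ATF2, chrVII:849438-849498: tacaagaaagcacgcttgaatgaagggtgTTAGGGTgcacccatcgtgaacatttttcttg

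The Abf1 consensus was found within 50 bp of 8 of the 106 strong coding peaks (7.55%), against 170 of 20332 weaker coding peaks (0.836%), which met the same position rule with 24 or more but fewer than 240 summed reads. Among 3486 strong promoter peaks, outside protein-coding genes and within 1000 bp upstream of the start of any annotated gene, 463 (13.3%) held it. Peaks at non-coding genes were not kept out of that set. The exact 95% interval of the share in strong coding peaks was 3.31% to 14.3%. Read the other way, 8 of the 178 coding peaks with an Abf1 match (4.49%) were strong, where in all 106 coding peaks were strong and 20332 weaker. The same share was 3.28% with a Reb1 match, 1.94% with a Ume6 match and 0.598% with the short Gcr1 letters CTTCC. The 8 peaks lay in *FAA4*, *SNF6*, *GDH2*, *PUT4*, *MNN4*, *PTK1*, *CAR2* and *GYP7*, and the centre of the match was between 30 bp before and 25 bp after the peak position, with that of *FAA4* 1 bp away. A match is a description of the sequence, and whether Abf1 was bound was not measured.

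The Ume6 letters were found in 7 strong coding peaks (6.60%), compared with 1.74% of weaker coding peaks and 4.39% of strong promoter peaks. These peaks lay in *PHM7*, *PUT4*, *UGA2*, *CAR2*, *UME6*, *AHA1* and *BTS1*. The Reb1 motif (TTACCCG) was found at 2 peaks, in *FRA1* and *ADE3* (1.89%, against 0.290% and 7.69% in the other sets), and the Tbf1 motif at *ATF2* alone (0.943%, against 0.610% and 0.889%). Cbf1 (CACGTG) matched at *HRB1* and *FLO5* (1.89%, against 0.728% of weaker coding and 3.44% of strong promoter peaks). Rap1 (ACCCANACA) matched at *GPH1* (0.943%, against 0.251% and 1.64%). The Gal4 pattern matched at *PTK1* and at another *PUT4* peak (1.89%, against 0.521% and 1.75%). In all, 21 of the 106 strong coding peaks held a match to at least 1 of these 7 factors, and the remaining ones held none of them in this window. The same joint count was not made in the other sets, so it is a description only. Both strands were searched, and palindromes such as CACGTG read the same on both.

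Some sequence features of promoters were missing from this window. A run of 8 A, found in 13.4% of strong promoter peaks and 0.925% of weaker coding peaks, was found in 0 of 106 strong coding peaks. A count of 0 allows a share of up to about 2.83%, an approximate limit taken as 3 of 106. The motifs of Swi4 (CGCGAAA), of the cell-cycle factor MBF (ACGCGT) and of the RSC subunit Rsc3 (CGCGCG) also had 0 matches. Their shares were 3.44%, 2.84% and 2.70% of strong promoter peaks and 0.364%, 0.477% and 0.113% of weaker coding peaks. With so rough a limit, these 3 counts of 0 do not clearly set strong coding peaks apart from promoter peaks. None of the counts of 0, that of the run of 8 A included, sets them apart from weaker coding peaks. A common short motif did not show the contrast with promoter peaks seen for the run of 8 A. The Gcr1 letters CTTCC were found in 24.5% of strong coding, 21.3% of weaker coding and 21.1% of strong promoter peaks.

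**Figure D1:**
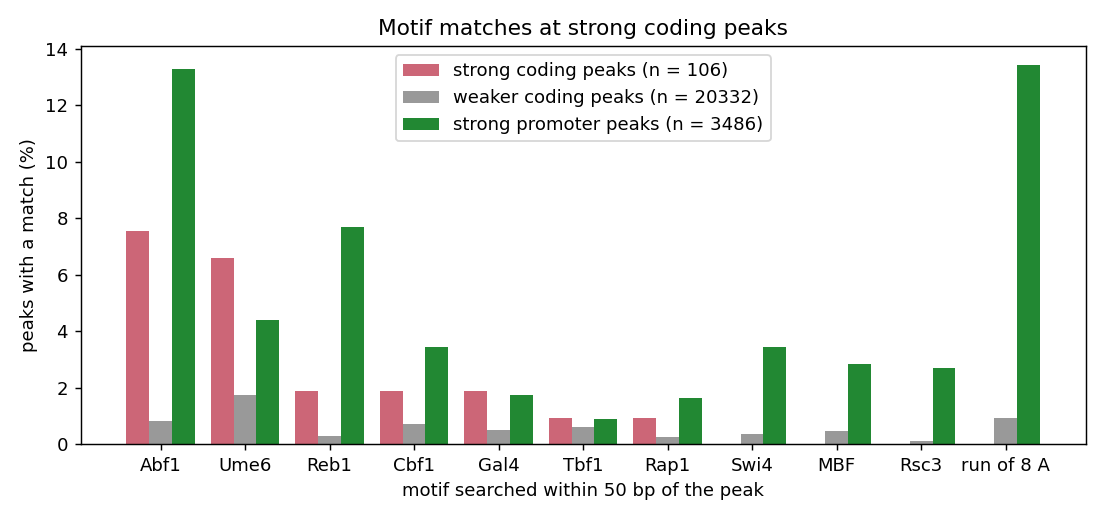
Share of peaks (y axis, percent) with each motif (x axis) within 50 bp, in 106 strong coding peaks, 20332 weaker coding peaks and 3486 strong promoter peaks. The bars for Abf1 stand at 7.55%, 0.836% and 13.3%, and a run of 8 A has no bar in the strong coding peaks.

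The windows of strong coding peaks were richer in G and C. Their median GC content was 45.5% (range 31.7% to 69.3%), compared with 40.6% in weaker coding peaks and 41.6% in strong promoter peaks. The highest GC, 69.3%, was at *UME6* and the lowest, 31.7%, at *IRC20*, which encodes a ubiquitin ligase. Within their own genes, 70 of the 106 peaks had a higher GC content than the median of the other peaks of that gene and 29 had a lower one. The median GC content was 51.5% at the 8 peaks with an Abf1 match and 49.5% at the 7 with a Ume6 match. The part of GC content in the depth of the strong coding peaks and in their motif shares was not tested.

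Depth ranged from 240 to 994 summed reads, with a median of 280, so most peaks sat just above the threshold. The peaks just inside it were in *VMA13* (241 reads), *BOP3* and *YVC1* (240 reads each), and 5 peaks missed it by a single read, in *DIA3*, *CDC45*, *AVT7*, *STT4* and *FLO5*. A strong coding peak held a median of 2.53 times the reads of the median of the other peaks of its gene (range 0.72 to 6.76), and 22 peaks held 3 times or more. The peaks were chosen by their reads, so these ratios describe them and are not a result. No other strong peak lay within 300 bp of 84 of the strong coding peaks. Peaks were spread along genes, with 36, 44 and 26 of them in equal first, middle and last parts. The first part held 34.0% and the last 24.5%, against 25.7% and 22.6% of weaker coding peaks. They were on 16 chromosomes.

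Along the genes, some strong coding peaks stood alone and others lay in strings. In *FAA4*, the peak 466 bp after the start held 574 reads, 4.99 times the median of the other peaks of the gene. In *ATF2*, the peak at 968 bp held 696 reads, 4.58 times that median, and in *SNF6* the peak at 648 bp held 474 reads, 3.25 times it. *PUT4* differed from these: 10 of its 11 peaks held 240 or more reads, and the gene as a whole was covered. The 6 *PUT4* peaks that met the rule lay between 534 and 1185 bp from the start, over 651 bp, and held 303 to 439 reads, that is 0.72 to 1.09 times the median of the other peaks of that gene. Other genes held 3 strong coding peaks (*FLO5*), 2 (8 genes) or 1 (81 genes). Peak positions in the deposited table were at least 100 bp apart, with a median of 200 bp, which bounds how finely neighbouring footprints can be resolved.

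**Figure D2:**
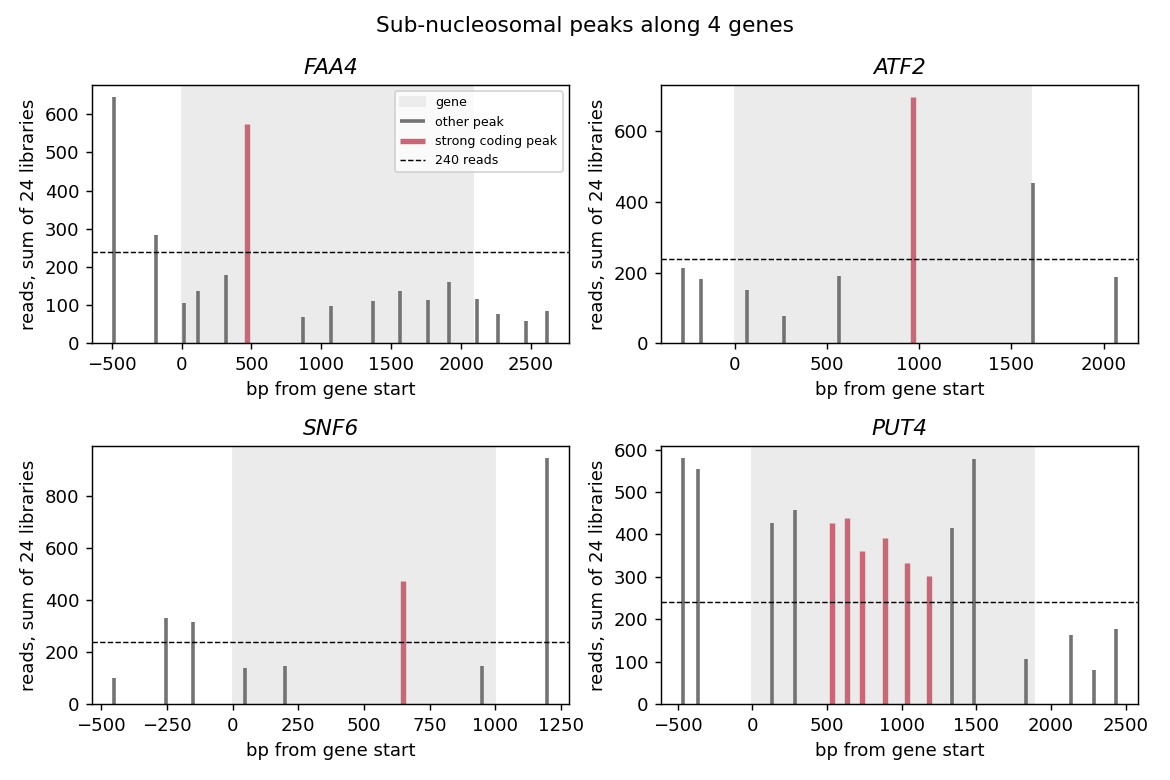
Reads summed over 24 libraries (y axis) of every peak from 600 bp before to 600 bp after 4 genes, by distance from the gene start in bp (x axis). Red lines are strong coding peaks, grey lines other peaks, the grey area the gene and the dashed line the threshold of 240 reads. *FAA4*, *ATF2* and *SNF6* hold 1 strong coding peak each and *PUT4* holds 6.

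The 2 deepest genes held sequence found elsewhere in the genome. *FLO5* encodes a flocculin, a cell wall adhesin built from internal repeats, and its peak of 994 reads was the deepest of all. Of the 52 stretches of 50 bp in its window, 31 were also found in *FLO1* or *FLO9*. The peaks of 751 and 724 reads in *RSC30*, which encodes a component of the RSC remodeller, had all 52 stretches in common with the nearby YHR054C, and the *ENA2* peak (270 reads) shared all of its stretches with *ENA1* or *ENA5*. Reads of these 4 peaks can belong to other copies. In the other 102 peaks every 50 bp stretch was unique. Only exact matches of 50 bp were looked for, so shorter or near-identical repeats can remain among these peaks. The *FLO5* peaks of 994 and 506 reads share such a near-identical stretch.

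The host genes came from many pathways. The 20 deepest hosts included *GLK1* (glucokinase, 503 reads), *PRY3* (a cell wall protein, 475), *PDR15* (a multidrug transporter, 431), *IRC15* (a microtubule-associated protein, 392), *CTL1* (an RNA 5′ phosphatase, 387), *YAT1* (a carnitine acetyltransferase, 381), *YKU80* (a subunit of Ku, 377), *YOR019W* (uncharacterised, 374), *CLB5* (an S-phase cyclin, 354) and *GLC7* (353). Over all 3456 genes that held a peak at such a position at any depth, 91 (2.63%) held a strong one. In lists of housekeeping genes, 0 of 43 ribosomal protein genes, 0 of 9 translation factor genes and 0 of 14 chaperone genes held a strong coding peak, and the deepest coding peaks in these lists had 170 (*RPL3*), 174 (*YEF3*) and 194 (*YDJ1*) reads. Glycolysis had 1 of 17 genes (*GLK1*), replication and S phase 1 of 17 (*CLB5*), cell wall and mating 1 of 11 (*FLO5*), transcription and chromatin 0 of 15, and membrane pumps and transporters 2 of 15 (*SNQ2* and *ENA2*). Counts this small do not set a list apart from the 2.63% of all genes.

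Of the strong coding peaks, 8 (7.55%) lay within 1000 bp of an annotated replication origin, compared with 4.28% of weaker coding peaks, 5.85% of strong promoter peaks and 6.68% of all 4553 strong peaks. Both *RSC30* peaks were among them, and without the 4 peaks in shared sequence the count was 6 of 102 (5.88%), between the shares of strong promoter peaks and of all strong peaks. None lay inside an origin. The nearest were in *YLR001C* (319 bp from ARS1208), *CAR2* (356 bp from ARS1233) and *LSC2*, a subunit of succinate-CoA ligase (363 bp from ARS733), and the others were in *BTS1*, *YKU80*, *TCD2* and, with both peaks, *RSC30*. The 3 deepest of these, at 751 and 724 reads in *RSC30* and 377 in *YKU80*, had pooled strain ratios (defined below) of 0.14, 0.01 and 0.19.

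Between 481930 and 536253 reads were counted in each library. To compare libraries, reads were divided by the library total over all peaks and scaled to the mean total, and are called normalised reads. The strong coding peaks held between 1 and 67 reads in any library and took 0.257% to 0.308% of the reads of a library. The median over peaks of the middle value across 12 libraries was 11.1 normalised reads in the control and 12.2 in *SSDDCS*.

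The first comparison asked how these footprints differed between G1 and S phase. Mean normalised reads in 4 blocks of time were set against the single G1 library of the strain, as log2 of reads + 1. Scaled by library totals, strong coding peaks had medians near G1 in the control, of 0.06 at 5 to 10 min, 0.05 at 15 to 25 min, 0.09 at 30 to 40 min (rank-based 95% interval −0.11 to 0.28) and 0.12 at 45 to 60 min. In *SSDDCS* the medians were 0.08, 0.24, 0.19 (0.05 to 0.35) and 0.17. Strong promoter peaks were lower in the middle of the time course, at −0.33 and −0.30 in the control and −0.34 and −0.30 in *SSDDCS* from 15 to 40 min. Weaker coding peaks were higher, at 0.25 and 0.38 in the control and 0.37 and 0.45 in *SSDDCS*. Strong coding peaks therefore lay between the other sets from 15 to 40 min in both strains.

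At 30 to 40 min, 60 of the 106 peaks (56.6%) were above G1 in the control, where 32.5% of all 4553 strong peaks were, and 66 (62.3%) were in *SSDDCS*, where 33.3% were. These medians depend on the scaling. Against all strong peaks, the median of strong coding peaks was 0.33 higher in the control and 0.43 higher in *SSDDCS*, and this difference was between 0.33 and 0.44 with each of the other 3 library-wide scalings, which shifted the median of all strong peaks by −0.19 to 0.26. Taken alone, the medians at 30 to 40 min moved both ways. The control median of 0.09 was 0.36 with median-of-ratios or TMM factors over strong peaks and −0.20 when each peak was scaled on weaker peaks within 10 kb. The *SSDDCS* median of 0.19 was 0.46 and 0.45 with those factors, was 0.01 when the ribosomal DNA was left out of the total, and was −0.11 with that local scaling. The ribosomal DNA took 26.6% to 37.7% of the reads of a library, and its part in the change from G1 was not tested beyond that scaling. Without the 4 peaks in shared sequence the medians were 0.06 and 0.13.

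**Figure D3:**
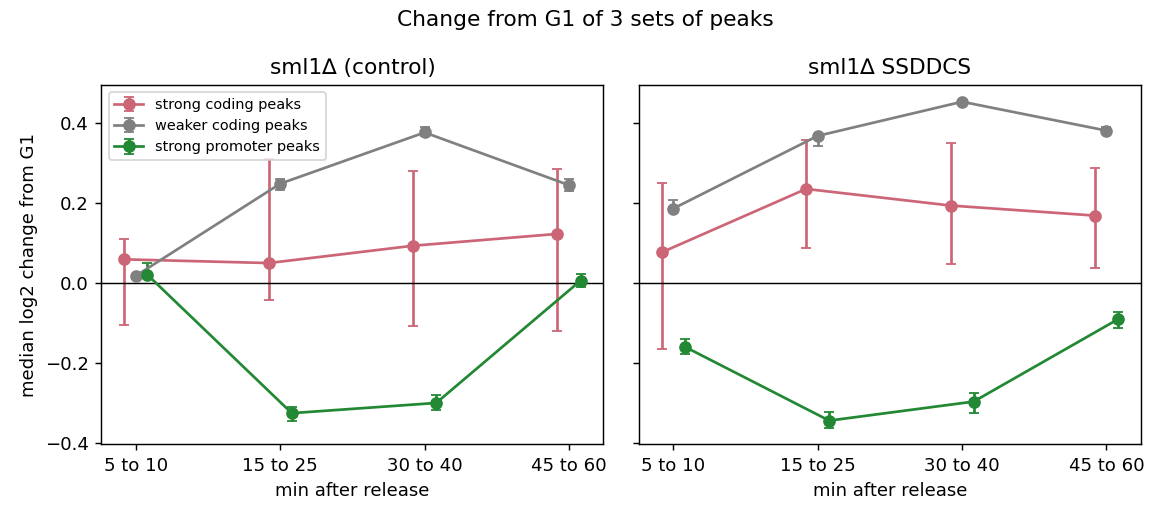
Median log2 change of normalised reads from the G1 library (y axis) at 5 to 10, 15 to 25, 30 to 40 and 45 to 60 min after release (x axis), in the control (left) and *SSDDCS* (right). Points are medians over 106 strong coding, 20332 weaker coding and 3486 strong promoter peaks, and bars are rank-based 95% intervals over peaks. Strong coding peaks lie between the other sets from 15 to 40 min.

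Single peaks differed from G1 in both directions. *ATF2* held 50.1 normalised reads in control G1 and 52.1 in *SSDDCS* G1, and between 19 and 38.9 in the 11 later control libraries and between 22.1 and 31.6 in the 11 later *SSDDCS* libraries. Each of the 22 later libraries was below its G1 library, and the ranges did not overlap. Pooled over the later libraries, the log2 change was −0.88 in the control (95% counting interval −1.30 to −0.43) and −0.97 in *SSDDCS* (−1.40 to −0.52). In this peak the G1 level was thus similar in both strains and so was the later one.

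Peaks below G1 at all 11 times in both strains numbered 3 (2.83%, against 3.45% of all strong peaks): *ATF2*, *CLB5* and *AHA1*, a co-chaperone of Hsp90. *CLB5* held 24.6 and 21.6 reads in G1 of control and *SSDDCS* and 8.2 to 20.8 and 8.1 to 21.1 later, with pooled changes of −0.80 (−1.41 to −0.14) and −0.65 (−1.30 to 0.07). *AHA1* held 19.9 and 15.7 in G1 and had pooled changes of −0.74 (−1.42 to −0.01) and −0.81 (−1.58 to 0.06). *PRM7*, a pheromone-regulated gene, was lower at 30 to 40 min by −0.93 and −1.31. It held 18.0 and 27.5 in G1, and its later ranges of 3.0 to 18.5 and 7.3 to 15.4 overlapped G1 in the control only. *ECM10*, a mitochondrial Hsp70, was at −1.05 and −0.67 at 30 to 40 min, with pooled intervals that included 0 in both strains.

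Peaks above G1 at all 11 times in both strains numbered 4 (3.77%, against 0.835% of all strong peaks): 1 peak each in *RSC30*, *GDH2*, *MNR2* and *PHM7*. Without *RSC30*, whose reads can belong to another copy, and the other peaks in shared sequence, 3 of 102 (2.94%) remained. *MNR2*, a vacuolar magnesium transporter, held 6.6 reads in control G1 and 8.2 to 14.8 later, and 4.9 in *SSDDCS* G1 and 8.3 to 19.3 later. Its pooled changes were 0.70 (−0.38 to 2.05) and 1.67 (0.42 to 3.31). The deeper *GLK1* peak held 15.1 and 8.8 reads in G1 and reached 38.4 at 30 min in the control and 30.8 at 40 min in *SSDDCS*. It was above G1 in 9 of 11 later control libraries, and in *SSDDCS* in every later library, with pooled changes of 0.56 (−0.16 to 1.39) and 1.26 (0.31 to 2.41). *YPS1*, a cell surface aspartyl protease, was at 0.84 and 1.42 at 30 to 40 min, and the second *GLK1* peak at 0.83 and 1.42. *CAR2* showed a change of 2.60 at 30 to 40 min in *SSDDCS*, where its G1 library held 2.0 reads, and of 0.23 in the control, where G1 held 11.4. Changes of such low G1 values rest on a few reads of 1 library.

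The second comparison set *SSDDCS* against the control at each time, as log2 of the ratio of normalised reads + 1. At 1 or more of the 11 times after G1, 74 of 106 peaks (69.8%) differed by 2-fold or more, where 57.8% of all strong peaks did. The share differed with depth. Among peaks of 240 reads to under 280 the shares were 78.8% and 77.7%, from there to under 350 reads they were 75.9% and 68.3%, and at 350 reads or more they were 44.0% and 44.8%. At 3 or more times, 18 peaks (17.0%) passed, against 7.82% of all strong peaks, and the most for any peak was 6 times. This count and those that follow were not matched for depth. Strong coding peaks were shallower than all strong peaks, with medians of 280 and 365 summed reads. In G1 itself 11 peaks (10.4%) passed, against 5.78%. No strong coding peak was higher in *SSDDCS* at all 11 times (0.527% of all strong peaks were) and none was lower at all 11 (0.659%). The counts at single times ranged from 8 peaks at 50 min (7.55%, against 6.44%) to 17 at 40 min (16.0%, against 8.06%). At 60 min 11 peaks passed (10.4%, against 6.61%), and all 11 were higher in *SSDDCS* (10.4%, against 3.27% of all strong peaks). At 10 min 4 of the 12 that passed were higher (11.3% and 3.77%, against 8.06% and 2.94%), at 50 min 4 of 8 were (3.77%, against 1.93%), and in G1 3 of 11 were (2.83%, against 2.53%). At each of the remaining times, more of the peaks that passed were higher than lower. The margin was narrowest at 20 min, with 8 of 15 higher (7.55% and 14.2%, against 3.65% and 9.58% of all strong peaks). Among all strong peaks that passed, more were also higher than lower at 15, 25, 35 and 40 min. At 5, 20, 30 and 45 min more of them were lower.

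Pooling the 11 later libraries gave each peak a strain ratio with a narrower error, with a median width of the 95% interval of 0.73 on the log2 scale. The pooled log2 ratio of *SSDDCS* to control had a median of 0.11 and ranged from −0.63 to 0.67. It was above 0 in 69 peaks (65.1%) and below in 37, while 38.6% of all strong peaks were above 0. The interval lay above equality in 19 peaks (17.9%, against 6.02%) and below it in 3 (2.83%, against 15.0%), and the ratio reached 1.5-fold in 5 (4.72%, against 1.87%). These shares were not matched for depth. The median ratio was −0.07 in all strong peaks and −0.09 in strong promoter peaks. It was 0.09 in weaker coding peaks, 0.01 below that of the strong coding peaks. The median of strong coding peaks stayed between 0.07 and 0.17 with other library-wide scalings and was 0.02 when each peak was scaled on weaker peaks within 10 kb. The rank-based interval over peaks was 0.03 to 0.17, and it included 0 without the ribosomal DNA (−0.01 to 0.13) and with that local scaling (−0.03 to 0.08).

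**Figure D4:**
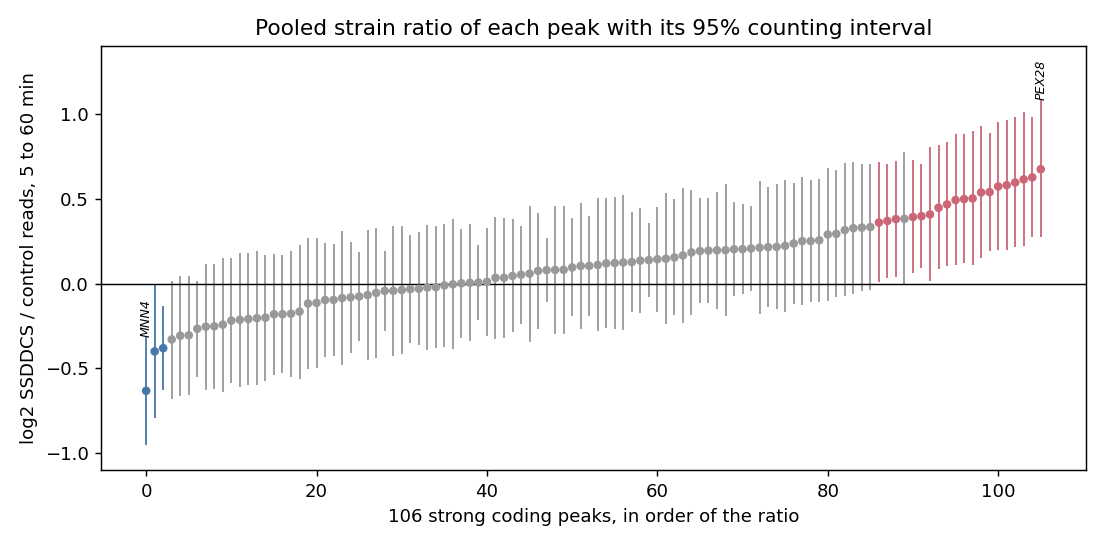
Pooled log2 ratio of *SSDDCS* to control reads from 5 to 60 min (y axis) of each of the 106 strong coding peaks, ordered by the ratio (x axis), with exact 95% counting intervals as bars. Red marks the 19 peaks with an interval above 0 and blue the 3 with an interval below 0, from *MNN4* at −0.63 to *PEX28* at 0.67.

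The peaks with the highest pooled ratio and the same sign at 9 or more times were in *PEX28*, *RIM101*, *VMA13*, *TVS1* and *BTS1*. *PEX28*, a peroxisomal membrane protein, held 3.1 to 11.4 reads in later control libraries and 8.1 to 17.9 in later *SSDDCS* libraries, and was higher in *SSDDCS* at 10 of 11 times, with a ratio of 0.67 (0.27 to 1.08). These ranges overlapped, and G1 went the other way, with 16.1 reads in the control and 8.8 in *SSDDCS*.

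*RIM101* encodes a regulator of the response to alkaline pH, and its ratio was 0.63 (0.27 to 0.98), with 16.1 and 15.7 reads in G1. *VMA13*, a subunit of the vacuolar ATPase, was at 0.61 (0.22 to 1.01). The deeper *TVS1* peak was at 0.60 (0.22 to 0.98), and *BTS1*, geranylgeranyl diphosphate synthase, at 0.58 (0.20 to 0.97). All of these were shallow peaks, of 241 to 315 summed reads, and their later ranges in the strains overlapped.

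Only *MNN4* met the same rule in the other direction. It held 18.9 reads in control G1 and 22.6 in *SSDDCS* G1. Later, it held 10.8 to 28.3 in the control and 6.1 to 18.5 in *SSDDCS*, was lower in *SSDDCS* at 9 of 11 times, and had a ratio of −0.63 (−0.95 to −0.32). From 10 to 30 min the *SSDDCS* libraries read 15.1, 11.0, 8.3, 7.2 and 6.1, and the control 27.1, 17.5, 22.7, 14.8 and 21.6, so that the strains did not overlap apart from the control value at 25 min. The deeper *PHM7* peak also had an interval below equality, at −0.38 (−0.63 to −0.13). Its difference was largest just after release, with 50.5 and 37.7 reads in the control at 5 and 10 min against 23.5 and 12.1 in *SSDDCS*, from like G1 levels of 22.7 and 23.6. *AHA1* was the other one, at −0.40 (−0.79 to −0.01).

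**Figure D5:**
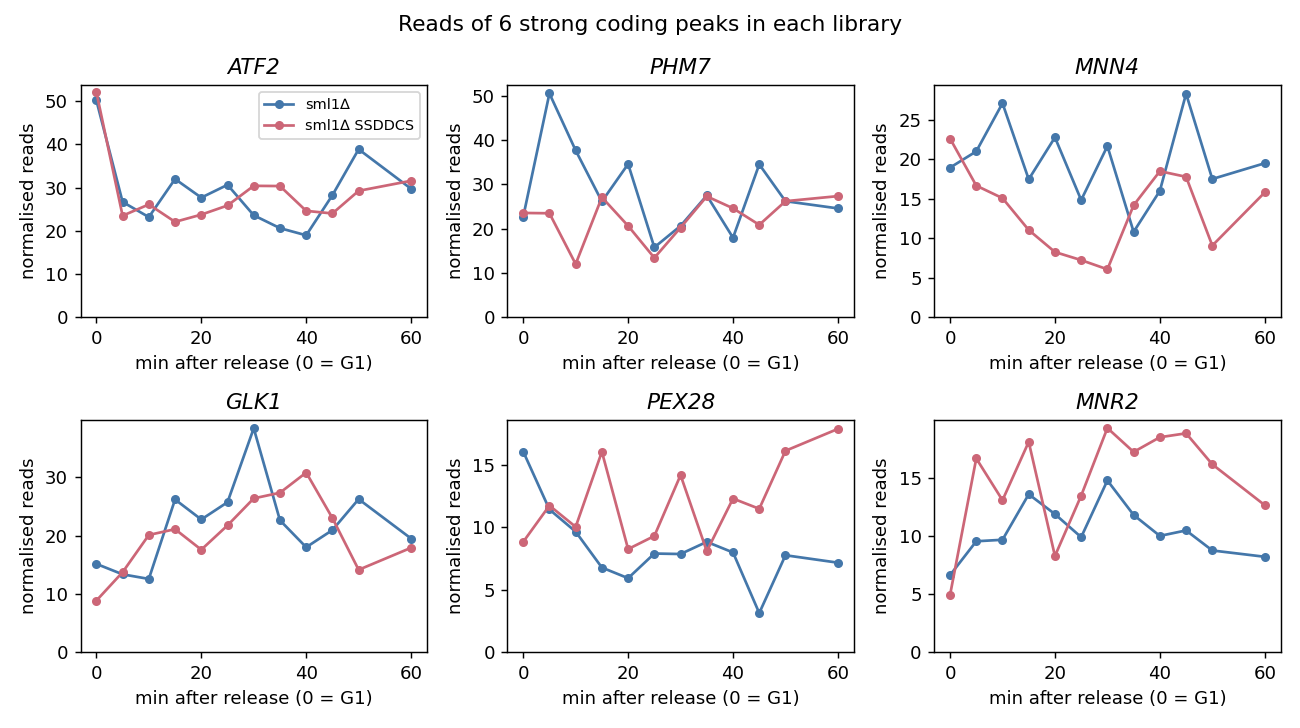
Normalised reads (y axis) of 6 strong coding peaks in each library, by minutes after release with G1 at 0 (x axis), in the control (blue) and *SSDDCS* (red). For *PHM7* and *GLK1* the deeper peak is drawn. *ATF2* is at 50.1 and 52.1 in G1 and at 38.9 or below in every later library, and *MNN4* reads 6.1 at 30 min in *SSDDCS* and 21.6 in the control.

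Apart from *PHM7*, the peaks deeper than that of *MNN4* (399 reads) had pooled intervals that included equality. *FLO5* at 994 reads held 26.2 to 65.9 reads in the control and 30.4 to 54.7 in *SSDDCS*, with a ratio of 0.08 (−0.11 to 0.27). *FAA4* was at 0.21 (−0.04 to 0.46), but its G1 levels differed, with 27.4 reads in the control and 10.8 in *SSDDCS*, and its pooled change from G1 was −0.28 (−0.84 to 0.33) in the control and 1.27 (0.41 to 2.29) in *SSDDCS*. *SNF6* was at 0.20 (−0.07 to 0.48). *ATF2* was at −0.04 (−0.28 to 0.19). *GLK1* was at −0.08 (−0.34 to 0.19). Of the 8 peaks with an Abf1 match, 7 had a ratio above 0 and *MNN4* was the exception, with a median of 0.15. Of the 7 with a Ume6 match, 5 were above 0, with a median of 0.05. These counts are small, and 65.1% of all strong coding peaks were above 0.

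Genes that the strains carry in altered form held no strong coding peak, although the one in *CDC45* missed the threshold by a single read. That peak held 45 reads in the later control libraries and 172 in the later *SSDDCS* libraries, a log2 ratio of 1.98 (1.5 to 2.49), and the deepest coding peaks of *DBF4*, *DPB11*, *SLD3* and *SLD2* were at 1.25, 1.22, 1.12 and 0.64. These genes were placed in *SSDDCS* as additional copies, and their values are given as a check of the labels. Why the ratios differed among these genes was not tested. *LEU2* was at 1.19 (0.71 to 1.68). *ADE2*, *CAN1* and *RAD5* were at 0.33, −0.26 and −0.16, with intervals that included equality. Among 10 galactose genes, *GAL2*, the galactose permease, held the only strong coding peaks, at 256 and 247 reads. At the deeper one the control held 2.9 to 15.8 reads and *SSDDCS* 2.9 to 21.2, with a ratio of 0.08 (−0.30 to 0.46), and at the other the ratio was 0.33 (−0.06 to 0.72). Neither interval excluded equality.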

How the data were processed

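The deposited file held whole read counts per peak in 24 libraries, and the authors stated how they were made. Paired-end reads were mapped to S288C R64 (sacCer3 in the submitters' processing notes, which name Bowtie2 2.2.6 and SAMtools 0.1.19). Fragments under 100 bp were kept, equal numbers of reads were sampled per fragment size, all libraries were merged to call peaks and reads were counted per peak. Such sampling evens out depth and fragment length. Library totals were 481930 to 536253 counts. Whether peak positions count from 0 or 1 was not stated. The number of value columns without a sample was 0, and no libraries were identical.

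Gene positions, origins and sequence came from RefSeq R64. The 2 strong peaks in annotated retrotransposon genes were left out. W303 differs from this reference. Counts were divided by library totals, with a pseudocount of 1 on the log2 scale. Pooled ratios carry exact Clopper-Pearson 95% intervals and medians rank-based binomial intervals. Motifs were searched within 50 bp of the peak. Python 3.11.15, NumPy 2.4.6, pandas 2.3.3, SciPy 1.17.1, matplotlib 3.10.9 and, for TMM factors, R 4.3.3 with edgeR 4.0.16 were used.

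Named peaks were the deepest of the 20 deepest genes, those in altered or galactose genes, up to 5 in each direction by strain ratio (same sign at 9 or more times) and by change from G1 at 30 to 40 min in both strains, genes with most peaks, up to 3 per motif and near origins, and 3 on each side of the threshold. A few other peaks were named with their values known. The peaks and gene lists were chosen with earlier results of these data known. Alternatives were other thresholds, scalings, pseudocounts, motif windows and time points left out.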

Additional observations from a re-analysis of the deposited data

Results flagged for a closer look

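The peaks in *FLO5* and *IRC20* lay on opposite sides of G1 in the strains at every later time, and these differences were not tested. How many of all strong peaks did so was not counted, so whether these peaks stand out is not known. Taken singly, 10.6% of all strong peaks were below G1 at all 11 times in the control. In *SSDDCS*, 6.50% were above G1 at all 11 times. The *FLO5* peak of 268 reads held 13.2 normalised reads in control G1 and 5.0 to 12.3 later, and 4.9 in *SSDDCS* G1 and 7.0 to 21.2 later, with a pooled log2 ratio of 0.57 (0.20 to 0.95). The *IRC20* peak of 244 reads held 12.3 in control G1 and 6.7 to 11.5 later, and 5.9 in *SSDDCS* G1 and 7.1 to 18.6 later, with a ratio of 0.21 (−0.18 to 0.60). Both rest on the single G1 library of each strain, where the control was the higher.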

How the results depend on the processing

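The number of strong coding peaks was 302 at a threshold of 200 reads, 23 at 360 reads and 64 at 500 bp from the gene ends. The count of 74 peaks past 2-fold was 30 with a pseudocount of 5, 15 at 3-fold, 9 of 23 peaks at 360 reads and 19729 of 20465 coding peaks with no threshold. It was 69 to 73 when a time point was left out. The count over all strong peaks was not remade with these alternatives. The median strain ratio was 0.17 with median-of-ratios and with TMM factors and 0.017 with local scaling. The control change from G1 was 0.36 with both sets of factors and −0.20 with local scaling. In *SSDDCS* it was 0.46 and 0.45 with those factors, 0.012 without the ribosomal DNA and −0.11 with local scaling, which reversed it. Within 25 bp the Abf1 share was 1.89% (2 peaks), against 0.438% of weaker coding and 8.15% of strong promoter peaks. Within 100 bp the Ume6 share was 15.1%, against 2.73% and 6.28%. Windows that wide overlap between neighbouring *PUT4* peaks, so a match can count more than once. In all, 43 of 62 alternative values stayed within the main interval or within 1.5 times the count. The cause of the other changes was not tested. The retrotransposon alternative, and the unique-sequence one other than for the number of peaks, were chosen after seeing the data. No paired analysis was possible because no group had a replicate culture, and matched times come from 1 culture of each strain. Depth limits single times, where a peak of median depth held about 11.1 reads.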

Other observations

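Genes whose RefSeq product names a transporter or permease held strong coding peaks in 12 of the 105 that had a coding peak (11.4%), compared with 2.63% of all such genes. They were *AUS1*, *GAL2*, *HXT10*, *MDL2*, *MNR2*, *PDR15*, *PHO90*, *PUT4*, *SNQ2*, *SUL2*, *TAT1* and *TPO1*, which carry sterols, sugars, ions, drugs, amino acids and polyamines across membranes. The group was formed after the peaks had been seen, so its share is a description only. Both *TPO1* peaks (342 and 331 reads) and both *GAL2* peaks counted towards 1 gene each.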
